A study of Homo sapiens
Mus musculus with 25 samples.

Results

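The 9 genes described here, AQP3, ANO1, CFTR, CA2, CA12, SLC12A2, SLC26A3, ATP1B1 and KCNN4, encode proteins that move ions, water or bicarbonate across epithelia, and were found by their symbols among the 38128 genes of a table of RNA-seq counts from 25 tumours. All 9 were present and all 9 passed the filter on low counts. Each tumour came from HT29 cells, a widely used line from a human colorectal adenocarcinoma, that had been injected into the flank of a nude mouse. By the labels, doxycycline was in the drinking water of every group. Parental HT29 gave 5 tumours (WT). The other groups carried a CRISPR knockout of the receptor tyrosine phosphatase PTPRK and a doxycycline-inducible construct: tGFP in 5 tumours (PTPRK KO), PTPRK in 6 (PTPRK), the phosphatase mutant R1095Q in 4 (PTPRK.RQ) and the mutant of the catalytic cysteine C1089S in 5 (PTPRK.C1089S).

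WT was the parental line. The knockout cells were a pool sorted for loss of PTPRK, not a set of independent clones, and the lines with tGFP, PTPRK and PTPRK.RQ were sorted on tGFP. Each group was thus 1 line, so an effect of the construct and a difference between cell lines cannot be told apart, and the p-values measure the spread between tumours of 1 line. The xenograft methods of the study describe the first 4 of these lines and not the PTPRK.C1089S line. The labels give more PTPRK tumours than the methods for the RNA libraries state for any line.

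In the colon, chloride is loaded into the epithelial cell from the blood side by the Na-K-2Cl cotransporter SLC12A2, on the sodium gradient kept by the sodium pump, of which ATP1B1 is a subunit. It leaves towards the lumen through CFTR, the cAMP-regulated channel, or ANO1, a calcium-activated channel, while KCNN4, a calcium-activated potassium channel, lets potassium out and keeps the driving force. SLC26A3 takes chloride up from the lumen in exchange for bicarbonate, the carbonic anhydrases CA2 (in the cytosol) and CA12 (at the membrane) interconvert carbon dioxide and bicarbonate, and AQP3 conducts water and glycerol.

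In GRCh38, on chromosomes counted from 1, AQP3 (ENSG00000165272) lies at chr9:33441156-33447596 on the minus strand, CFTR (ENSG00000001626) at chr7:117287120-117715971 on the plus strand and ANO1 (ENSG00000131620) at chr11:70078302-70189528 on the plus strand. SLC26A3 (ENSG00000091138) lies at chr7:107765467-107803225 (minus), SLC12A2 (ENSG00000064651) at chr5:128083766-128189677 (plus) and ATP1B1 (ENSG00000143153) at chr1:169105697-169132722 (plus). KCNN4 (ENSG00000104783) lies at chr19:43766533-43781257 (minus), CA2 (ENSG00000104267) at chr8:85463968-85481493 (plus) and CA12 (ENSG00000074410) at chr15:63321378-63381846 (minus). Reads were counted over exons without regard to strand, so reads from overlapping genes cannot be told apart. The overlapping genes with the most counts were ANO1-AS1, antisense to ANO1, with 20787 counts over all tumours against 138493 for ANO1, CA3-AS1 with 436 against 8630 for CA2, NME7 with 56592 against 1242886 for ATP1B1, and CTTNBP2 with 8527 against 200562 for CFTR.

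The tumours held 43.7 to 59.4 M counts each. PTPRK, the targeted gene, followed the labels in every tumour: 298 to 333 CPM (counts relative to the total of the tumour, scaled by TMM) in WT, 28.1 to 75.9 in PTPRK KO, 1318 to 2275 in PTPRK, 971 to 1709 in PTPRK.RQ and 1139 to 1774 in PTPRK.C1089S, so the 3 re-expressing groups had more PTPRK RNA than WT. PTPRK.C1089S replicate 4 stood apart, with a median correlation of 0.976 with its own group where the others had 0.984 or more. Values below are CPM for levels and log2 fold changes for differences, with the standard error (SE) and the adjusted p of the edgeR quasi-likelihood test over all 18823 genes tested, called at 0.05. Levels are compared between groups for 1 gene and not between genes.

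**Figure D1:**
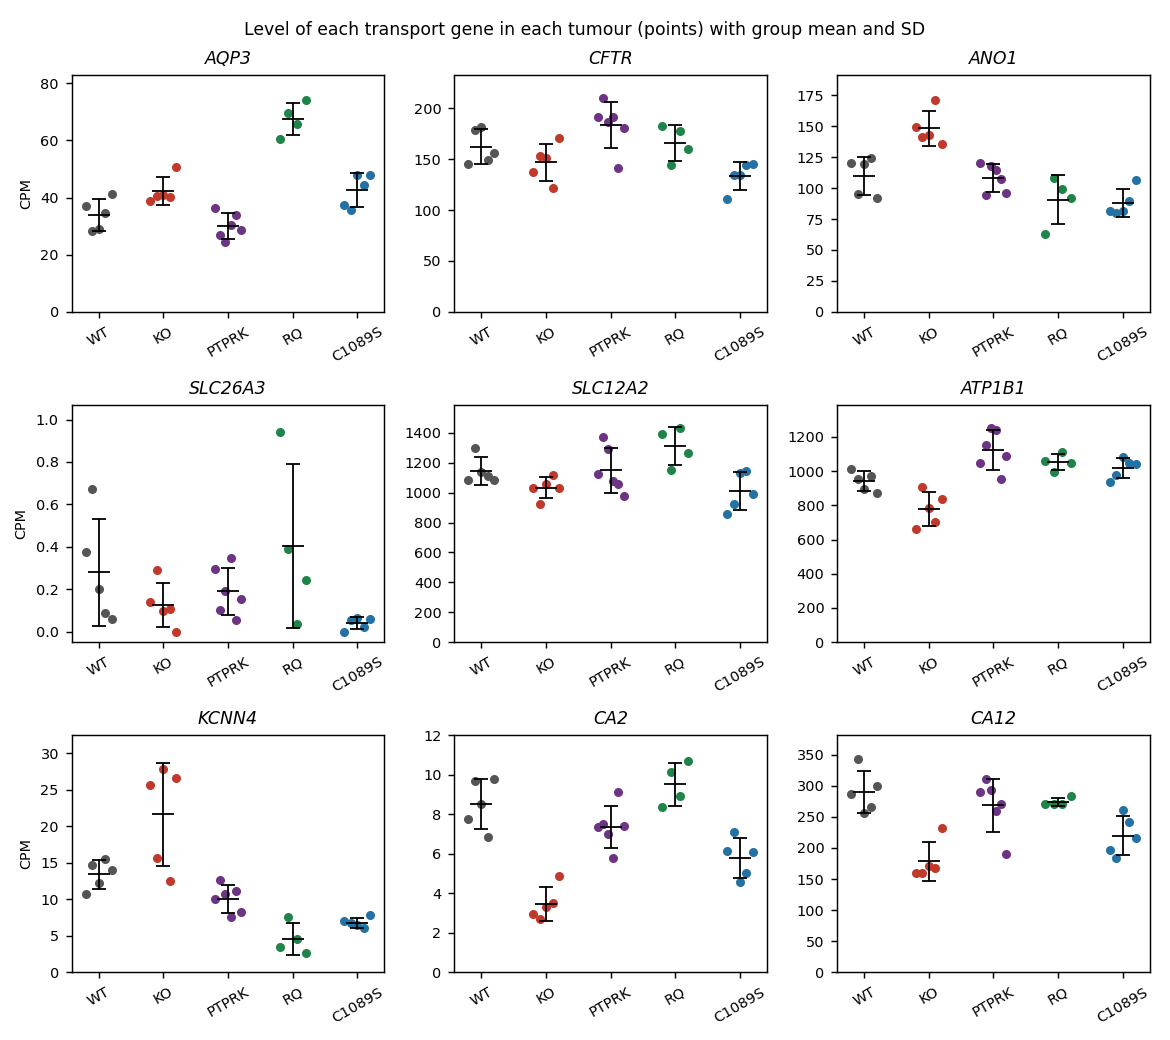
Level of each of the 9 transport genes in each tumour, in CPM on a linear axis, for WT, PTPRK KO (KO), PTPRK, PTPRK.RQ (RQ) and PTPRK.C1089S (C1089S) tumours. Points are tumours, bars the group mean and SD (n = 5, 5, 6, 4 and 5). CA2 is lowest in the KO tumours, 2.71 to 4.90 CPM, and AQP3 highest in the RQ tumours, 60.7 to 74.2 CPM.

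In the knockout the carbonic anhydrases were the only genes of the 9 that were called, though DESeq2 also called ANO1, ATP1B1 and KCNN4. In PTPRK KO against WT, CA2 and CA12 fell and no other of the 9 passed the test, which makes 2 of 9 called (0 higher, 2 lower), beside 2.0% of all genes tested. The median log2 fold change was -0.15 over the 9 genes and 0.01 over all genes. Re-expression moved more of them. In PTPRK against PTPRK KO 7 of 9 were called, with CA2, CA12, ATP1B1 and CFTR higher and AQP3, ANO1 and KCNN4 lower, beside 28.6% of all genes. In PTPRK.RQ against PTPRK KO 7 of 9 were called, with CA2, CA12, AQP3, ATP1B1 and SLC12A2 higher and ANO1 and KCNN4 lower, beside 19.1% of all genes. In PTPRK.C1089S against PTPRK KO 4 of 9 were called, with CA2 and ATP1B1 higher and ANO1 and KCNN4 lower, beside 16.2% of all genes. The median over the 9 genes was 0.32, 0.44 and -0.03 in these comparisons, and over all genes it was 0.02, 0.03 and 0.00. These comparisons share the 5 PTPRK KO tumours. CA2, CA12, ANO1, KCNN4 and AQP3 also stand in gene lists that the study drew from these tumours, so their calls are not independent evidence of direction. The 9 genes were chosen with earlier results of these data known. Their shares called, beside those of all genes, are therefore descriptions and not independent evidence of an excess. Tumours are bulk tissue, in which fewer cells of a type and less RNA per cell cannot be told apart.

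CA2 gave the largest fall of the 9 genes in the knockout. Its level was 7.78, 9.71, 8.52, 6.87 and 9.80 CPM in the WT tumours and 2.93, 2.71, 3.31, 3.50 and 4.90 CPM in the PTPRK KO tumours. No PTPRK KO tumour reached the lowest WT tumour. The change was -1.30 (SE 0.15, adjusted p = 1.53e-05), a fold of 0.407 with a 95% interval of 0.328 to 0.505. In the PTPRK tumours CA2 ranged from 5.79 to 9.12 CPM with a median of 7.40, in PTPRK.RQ it was 8.35, 10.2, 8.92 and 10.7 CPM, and in PTPRK.C1089S 6.14, 7.12, 4.56, 5.04 and 6.11 CPM. All PTPRK and PTPRK.RQ tumours lay above all PTPRK KO tumours, and PTPRK.C1089S replicate 3 lay below the highest of them. The rise over PTPRK KO was 1.09 (SE 0.15, adjusted p = 7.59e-06) with PTPRK, 1.46 (SE 0.16, adjusted p = 2.18e-07) with PTPRK.RQ and 0.74 (SE 0.15, adjusted p = 0.00095) with PTPRK.C1089S. Against WT, CA2 was called lower in PTPRK.C1089S, at -0.56 (adjusted p = 0.0114). It was not called in PTPRK, at -0.21 (95% interval -0.50 to 0.08), or in PTPRK.RQ, at 0.16 (-0.16 to 0.48). CA2 rested on 141 to 576 counts per tumour.

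CA12, the membrane-bound carbonic anhydrase, followed the same order of PTPRK KO below WT. It was at 287, 343, 257, 265 and 300 CPM in WT and at 160, 160, 172, 168 and 232 CPM in PTPRK KO. The groups did not overlap, and replicate 5 lay above the other PTPRK KO tumours. The fall was -0.70 (SE 0.12, adjusted p = 0.00136). CA12 ranged from 190 to 311 CPM in PTPRK with a median of 280, was 270, 271, 271 and 284 CPM in PTPRK.RQ, and was 197, 184, 261, 242 and 216 CPM in PTPRK.C1089S. PTPRK replicate 6 and 3 of the 5 PTPRK.C1089S tumours lay within the range of PTPRK KO. CA12 rose over PTPRK KO by 0.59 with PTPRK (SE 0.11, adjusted p = 0.00036) and by 0.62 with PTPRK.RQ (SE 0.12, adjusted p = 0.000558). With PTPRK.C1089S the difference was 0.30 (SE 0.12, adjusted p = 0.0735), which was not called. That difference passed the test in 4 of 30 alternative settings, among them the fit without PTPRK KO replicate 5 (0.42, adjusted p = 0.0106; 0.0106 to 0.214 over the settings). Against WT, CA12 was lower in PTPRK.C1089S, at -0.40 (adjusted p = 0.0195), a call lost without WT replicate 2, PTPRK.C1089S replicate 1 or PTPRK.C1089S replicate 2 (adjusted p 0.00716 to 0.0857 over the settings). It was not called in PTPRK, at -0.11 (-0.34 to 0.12), or in PTPRK.RQ, at -0.08 (-0.33 to 0.17).

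KCNN4, the potassium channel, had the largest falls of the 9 genes on re-expression. It was at 10.7, 14.6, 12.3, 15.6 and 14.0 CPM in WT. In PTPRK KO it was at 25.7, 15.6, 27.8, 12.4 and 26.6 CPM. Replicates 2 and 4 of PTPRK KO lay within or at the edge of the WT range and the other 3 above it, the widest spread of the 9 genes within PTPRK KO other than SLC26A3 (coefficient of variation 32.7%). The difference of 0.69 (SE 0.22, adjusted p = 0.116) was not called. It passed the test with DESeq2 and in 2 of 25 fits that left out a tumour (adjusted p 0.0313 to 0.266 over 31 settings). In PTPRK it ranged from 7.63 to 12.7 CPM with a median of 10.4, in PTPRK.RQ it was 3.53, 7.62, 4.56 and 2.64 CPM, and in PTPRK.C1089S 6.97, 6.72, 6.42, 6.02 and 7.89 CPM. Every PTPRK.RQ and PTPRK.C1089S tumour lay below every PTPRK KO and every WT tumour. KCNN4 fell against PTPRK KO by 1.10 on the log2 scale with PTPRK (SE 0.21, adjusted p = 0.000535), by 2.24 with PTPRK.RQ (SE 0.25, adjusted p = 9.72e-07) and by 1.67 with PTPRK.C1089S (SE 0.23, adjusted p = 1.35e-05). Against WT it fell by 1.55 in PTPRK.RQ (adjusted p = 0.000158) and by 0.98 in PTPRK.C1089S (adjusted p = 0.00471), and in PTPRK it was at -0.42 (-0.85 to 0.02), not called.

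ANO1, the calcium-activated chloride channel, was highest in the knockout. It was at 120, 95, 119, 124 and 91.9 CPM in WT and at 149, 141, 143, 171 and 136 CPM in PTPRK KO. The groups did not overlap, but the difference of 0.43 (SE 0.12, adjusted p = 0.0502) was not called. It was called in 6 of 31 alternative settings, among them DESeq2 and the fit of these groups alone (adjusted p 0.0164 to 0.148 over the settings). ANO1 ranged from 94.2 to 120 CPM in PTPRK with a median of 111. It was 62.5, 108, 99.4 and 92.3 CPM in PTPRK.RQ and 81.2, 79.8, 81.7, 89.4 and 107 CPM in PTPRK.C1089S. None of the 15 re-expressing tumours reached the lowest PTPRK KO tumour. ANO1 fell against PTPRK KO by 0.45 with PTPRK (SE 0.11, adjusted p = 0.00385), by 0.71 with PTPRK.RQ (SE 0.13, adjusted p = 0.000184) and by 0.75 with PTPRK.C1089S (SE 0.12, adjusted p = 4.62e-05). Its antisense gene ANO1-AS1, at 15% of its counts, cannot be separated from it where they overlap.

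ATP1B1, the beta subunit of the sodium pump, rose with each form of PTPRK. In WT it was at 1015, 953, 896, 969 and 872 CPM and in PTPRK KO at 662, 907, 782, 701 and 837 CPM. PTPRK KO replicate 2 lay within the WT range and the other 4 below it, and the difference of -0.27 (SE 0.08, adjusted p = 0.0773) was not called. It passed the test in 2 of 31 settings, DESeq2 and the fit without PTPRK KO replicate 2 (adjusted p 0.0322 to 0.211 over the settings). ATP1B1 ranged from 956 to 1252 CPM in PTPRK with a median of 1121, and was 1060, 995, 1113 and 1046 CPM in PTPRK.RQ and 937, 978, 1081, 1046 and 1039 CPM in PTPRK.C1089S. All of these tumours lay above all PTPRK KO tumours. The rise over PTPRK KO was 0.53 (SE 0.08, adjusted p = 2.55e-05), 0.44 (SE 0.09, adjusted p = 0.000562) and 0.39 (SE 0.08, adjusted p = 0.0013) with PTPRK, PTPRK.RQ and PTPRK.C1089S. ATP1B1 was also the 1 gene of the 9 called in PTPRK against WT, at 0.25 (SE 0.08, adjusted p = 0.0131), beside 35.7% of all genes in that comparison.

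AQP3, the water and glycerol channel, moved in opposite directions with PTPRK and PTPRK.RQ. It was at 37.2, 28.2, 28.9, 34.5 and 41.3 CPM in WT and at 38.9, 40.5, 40.8, 40.3 and 50.8 CPM in PTPRK KO. PTPRK KO replicate 5 was the highest of these tumours, the groups overlapped, and the difference of 0.31 (SE 0.11, adjusted p = 0.179) was not called. AQP3 ranged from 24.4 to 36.4 CPM in PTPRK with a median of 29.4, was 60.7, 69.5, 65.7 and 74.2 CPM in PTPRK.RQ, and was 37.3, 35.5, 47.9, 44.3 and 48.1 CPM in PTPRK.C1089S. The PTPRK tumours all lay below, and the PTPRK.RQ tumours all above, the PTPRK KO tumours. Against PTPRK KO, AQP3 fell by 0.49 with PTPRK (SE 0.11, adjusted p = 0.00161) and rose by 0.68 with PTPRK.RQ (SE 0.12, adjusted p = 0.000169). With PTPRK.C1089S the difference was 0.01 (95% interval -0.22 to 0.24, adjusted p = 0.965). Against WT it was higher in PTPRK.RQ by 0.99 (SE 0.12, adjusted p = 3.98e-06). In PTPRK.C1089S against WT it was at 0.32 (0.09 to 0.56, adjusted p = 0.054), not called. That difference passed the test in 10 of 30 alternative settings (adjusted p 0.0215 to 0.159 over the settings).

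CFTR, the cAMP-regulated chloride and bicarbonate channel, was called in 2 of the 10 comparisons. It was at 145, 179, 182, 149 and 156 CPM in WT and at 137, 153, 151, 121 and 171 CPM in PTPRK KO. The ranges overlapped and the difference was -0.14 (-0.35 to 0.06, adjusted p = 0.547). In PTPRK it ranged from 142 to 210 CPM with a median of 189, in PTPRK.RQ it was 182, 144, 178 and 160 CPM, and in PTPRK.C1089S 111, 134, 134, 145 and 145 CPM. CFTR rose over PTPRK KO with PTPRK, by 0.32 (SE 0.10, adjusted p = 0.0132), though PTPRK replicate 5, at 142 CPM, lay inside the PTPRK KO range. It was not called with PTPRK.RQ, at 0.18 (-0.04 to 0.39), or with PTPRK.C1089S, at -0.13 (-0.34 to 0.07).

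SLC12A2, the Na-K-2Cl cotransporter, was called against PTPRK KO with PTPRK.RQ alone among the 3 forms. It was at 1082, 1302, 1141, 1114 and 1085 CPM in WT and at 1034, 924, 1057, 1115 and 1033 CPM in PTPRK KO, a difference of -0.15 (-0.34 to 0.04, adjusted p = 0.492). WT replicate 2 was the highest of these tumours. It ranged from 975 to 1373 CPM in PTPRK with a median of 1103, was 1393, 1152, 1430 and 1266 CPM in PTPRK.RQ, and was 860, 923, 1130, 1145 and 990 CPM in PTPRK.C1089S. The PTPRK.RQ tumours lay above all PTPRK KO tumours, by 0.34 (SE 0.10, adjusted p = 0.0136), a call lost without PTPRK.RQ replicate 3 (0.29, adjusted p = 0.0745; 0.00527 to 0.0745 over 31 settings). With PTPRK the difference was 0.15 (-0.03 to 0.34) and with PTPRK.C1089S -0.03 (-0.22 to 0.16).

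SLC26A3, the chloride and bicarbonate exchanger of surface colonocytes, was near the limit of detection. Its counts were 20, 28, 9, 5 and 3 in WT, 7, 15, 5, 5 and 0 in PTPRK KO, 3 to 19 with a median of 8 in PTPRK, 49, 19, 2 and 13 in PTPRK.RQ and 0, 3, 3, 1 and 3 in PTPRK.C1089S. PTPRK.C1089S tumours were at or under 3 counts, and the other groups spread widely, with PTPRK.RQ replicate 1 holding 49 of the 83 counts of its group. SLC26A3 passed the filter on low counts through the groups in which it was higher. It was not called against PTPRK KO in any group. It passed the test in PTPRK.C1089S against WT and against PTPRK.RQ, on overlapping groups and fewer than 50 counts in every tumour, and these calls are left out of the counts of genes below. The first was lost without WT replicate 1, WT replicate 2, PTPRK.C1089S replicate 1 or PTPRK.C1089S replicate 4, and the second without PTPRK.RQ replicate 1, PTPRK.C1089S replicate 1 or PTPRK.C1089S replicate 2.

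**Figure D2:**
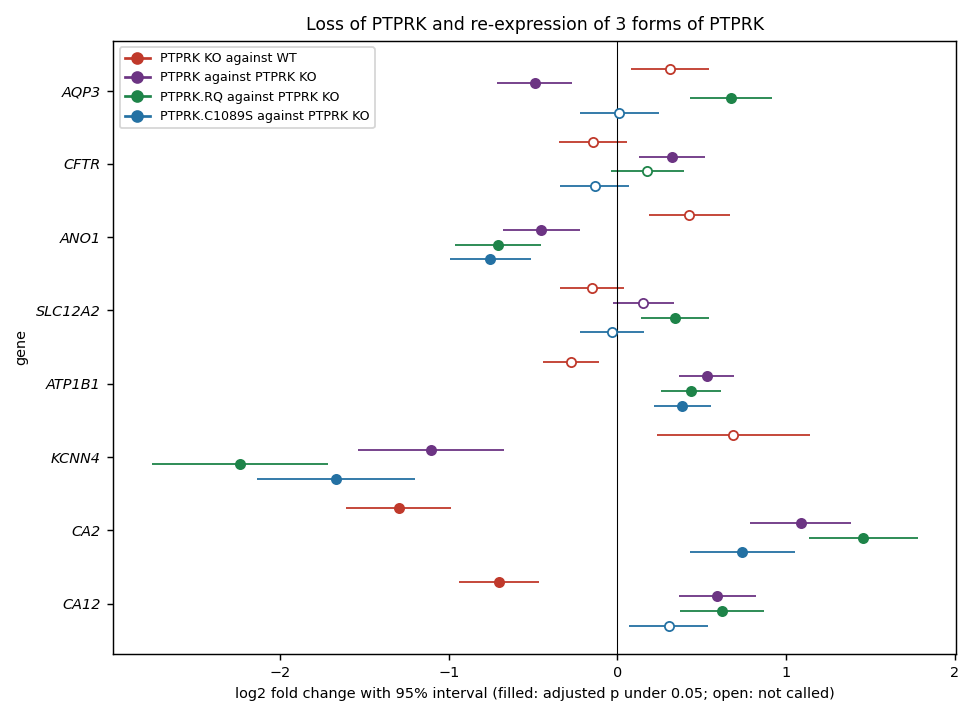
Log2 fold change, with its 95% interval, of 8 transport genes, for the knockout against WT and for each re-expressing group against the knockout. SLC26A3 is left out for its low counts. Filled points passed the test at an adjusted p of 0.05 over all genes and open points did not. CA2 fell by 1.30 in PTPRK KO and lies right of 0 in all 3 re-expressing groups, and AQP3 lies at -0.49 with PTPRK and at 0.68 with PTPRK.RQ.

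The comparison of the mutants with PTPRK asks whether the level of these genes differed with the catalytic site of the re-expressed protein. In PTPRK.RQ against PTPRK, AQP3 was higher and KCNN4 lower, and no other of the 9 was called, 2 of 9 beside 3.38% of all genes. AQP3 was higher by 1.17 (SE 0.11, adjusted p = 9.13e-07), a fold of 2.24 with an interval of 1.91 to 2.64, and the lowest PTPRK.RQ tumour, at 60.7 CPM, lay above the highest PTPRK tumour, at 36.4. KCNN4 fell by 1.14 (SE 0.24, adjusted p = 0.00737), with the highest PTPRK.RQ tumour, at 7.62 CPM, just under the lowest PTPRK tumour, at 7.63. PTPRK RNA itself was not called in this comparison, at -0.51 (-0.95 to -0.07, adjusted p = 0.224), though its unadjusted interval left out 0. The study reported lower expression of PTPRK.RQ than of PTPRK in its tumours. An effect of the mutation and an effect of the level of PTPRK cannot be told apart here. Goblet cell markers also differed: 6 of 8 were called higher in PTPRK.RQ than in PTPRK, TFF3 by 1.45 and ZG16 by 2.66 among them. The summed level of the markers was 1505 to 2448 CPM in PTPRK.RQ and 1062 to 1463 in PTPRK. CLCA1, at or below 0.668 CPM in the mean of every group, was at -0.41 (adjusted p = 0.78), not called. The part of the goblet cell markers in the difference of AQP3 and KCNN4 was not tested.

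For the 7 genes not called in PTPRK.RQ against PTPRK, the intervals of the difference ran from -0.26 to 0.08 for ATP1B1, from -0.35 to 0.06 for CFTR, from -0.21 to 0.27 for CA12, from 0.00 to 0.38 for SLC12A2, and from -0.33 to 2.47 for SLC26A3, where the few counts leave a wide range. ANO1, from -0.50 to -0.01, and CA2, from 0.07 to 0.67, had unadjusted intervals that left out 0 without a call.

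In PTPRK.C1089S against PTPRK, AQP3 was higher, by 0.50 (SE 0.11, adjusted p = 0.00513), and CFTR lower, by -0.46 (SE 0.10, adjusted p = 0.00443), 2 of 9 beside 13.2% of all genes. For CFTR, PTPRK replicate 5, at 142 CPM, lay below the 2 highest PTPRK.C1089S tumours, and for AQP3, PTPRK.C1089S replicate 2, at 35.5 CPM, lay below the highest PTPRK tumour. KCNN4, at -0.56 (-1.01 to -0.12), CA2, at -0.35 (-0.64 to -0.06), and ANO1, at -0.30 (-0.53 to -0.07), were not called. The 2 mutants also differed from each other. In PTPRK.C1089S against PTPRK.RQ 3 of the 8 genes other than SLC26A3 were called, all lower, beside 4.93% of all genes: AQP3 by -0.66 (SE 0.12, adjusted p = 0.00147), CA2 by -0.72 (SE 0.16, adjusted p = 0.00732) and SLC12A2 by -0.38 (SE 0.10, adjusted p = 0.024). For AQP3 and CA2 no PTPRK.C1089S tumour reached the lowest PTPRK.RQ tumour, and both calls held in all 30 settings. SLC12A2 was called in 24 of 30 settings (adjusted p 0.00732 to 0.13). Goblet cell markers were lower here too, 5 of 8 called, with a sum of 1125 to 1261 CPM in PTPRK.C1089S, and their part was not tested. Without PTPRK.C1089S replicate 4, 2 further genes passed the test: CA12 in PTPRK.C1089S against PTPRK, at -0.33 (adjusted p = 0.0444, 0.0234 to 0.247 over 30 settings; -0.29 with all tumours), and CFTR in PTPRK.C1089S against PTPRK.RQ, at -0.34 (adjusted p = 0.0404, 0.0358 to 0.265; -0.31 with all tumours). Without it, the count of all genes called rose from 2493 to 5063 in PTPRK.C1089S against PTPRK and from 928 to 2422 against PTPRK.RQ.

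**Figure D3:**
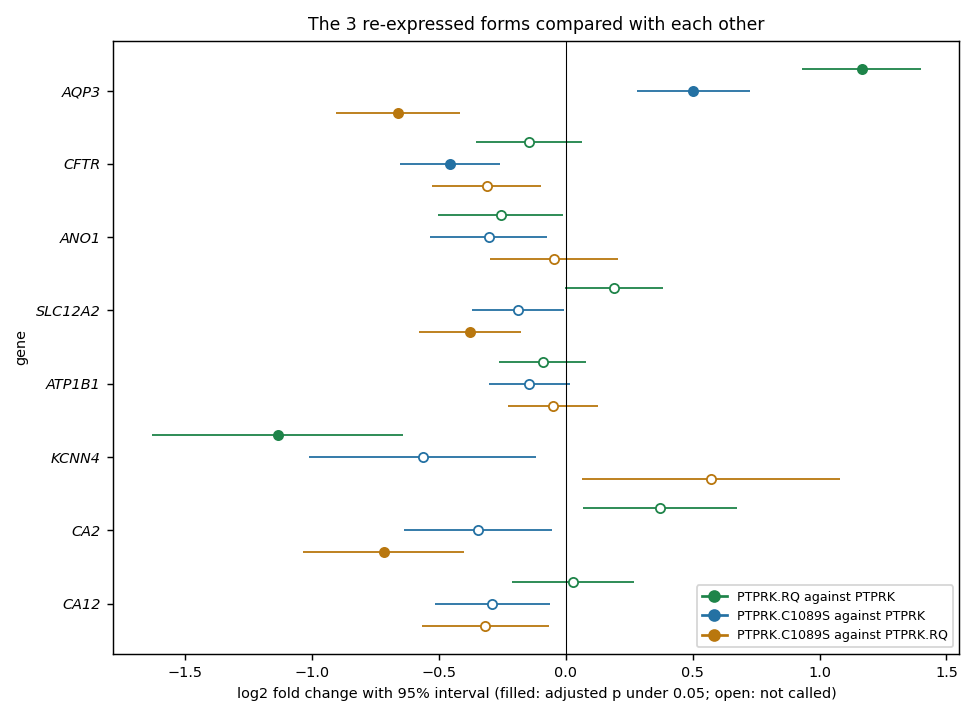
Log2 fold change, with its 95% interval, of 8 transport genes between the re-expressed forms of PTPRK: PTPRK.RQ against PTPRK, PTPRK.C1089S against PTPRK, and PTPRK.C1089S against PTPRK.RQ. Filled points passed the test at an adjusted p of 0.05 over all genes and open points did not. AQP3 is called in each, at 1.17, 0.50 and -0.66, and ATP1B1 in none.

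Set against WT, PTPRK had 1 of 9 called (above). PTPRK.RQ had 2 of 9, AQP3 higher and KCNN4 lower, a share near the 24.7% of all genes. PTPRK.C1089S had CA2, CA12 and KCNN4 called, all lower, 3 of the 8 genes other than SLC26A3, beside 14.3% of all genes. Over the 5 groups, the ordered means of neighbouring groups seldom differed beyond their spread: CA2 was highest in PTPRK.RQ (9.53 ± 1.09 CPM, SD, n = 4), followed by WT (8.54 ± 1.26, n = 5), PTPRK (7.38 ± 1.07, n = 6), PTPRK.C1089S (5.79 ± 1.01, n = 5) and PTPRK KO (3.47 ± 0.857, n = 5), and only the last step was called. AQP3 fell from 67.5 ± 5.74 CPM in PTPRK.RQ to 42.6 ± 5.88 in PTPRK.C1089S, the one called step, then 42.3 ± 4.82 in PTPRK KO, 34.0 ± 5.56 in WT and 30.1 ± 4.50 in PTPRK. KCNN4 ran from 21.6 ± 7.07 CPM in PTPRK KO through 13.4 ± 1.95 in WT, 10.1 ± 1.89 in PTPRK and 6.80 ± 0.700 in PTPRK.C1089S to 4.59 ± 2.17 in PTPRK.RQ, with no called step between neighbours. For CFTR, ANO1, SLC26A3, SLC12A2, ATP1B1 and CA12 no step between neighbouring groups was called.

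Because whole stretches of a chromosome can shift together between sublines of a cancer cell line, each gene was set beside the 50 tested genes nearest to it. In PTPRK KO against WT, the neighbours of CA2 had a median of 0.24 while CA2 was at -1.30, and those of CA12 a median of 0.04 while CA12 was at -0.70. Against PTPRK KO the neighbours of KCNN4 moved in the same direction as KCNN4. Their median was -0.27 in PTPRK, -0.44 in PTPRK.RQ and -0.41 in PTPRK.C1089S, beside -1.10, -2.24 and -1.67 for KCNN4. Of these neighbours 22, 27 and 25 of 50 were called, beside 28.6%, 19.1% and 16.2% of all genes. The neighbours of ATP1B1 had medians of 0.25, 0.16 and 0.10 against PTPRK KO, beside 0.53, 0.44 and 0.39 for ATP1B1. In PTPRK against WT, where ATP1B1 was called at 0.25, its neighbours had a higher median, 0.34. Of those neighbours 22 of 50 were called there, beside 35.7% of all genes. CFTR lay near its neighbours in PTPRK against PTPRK KO, at 0.32 beside 0.21. AQP3 did not in PTPRK.RQ against PTPRK, at 1.17 beside 0.16. In PTPRK against PTPRK KO the neighbours of AQP3 moved in its direction, with a median of -0.19 beside -0.49 for AQP3. In PTPRK.RQ against PTPRK KO their median was -0.01, beside 0.68. The part of such regional shifts in these results was not tested.

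**Figure D4:**
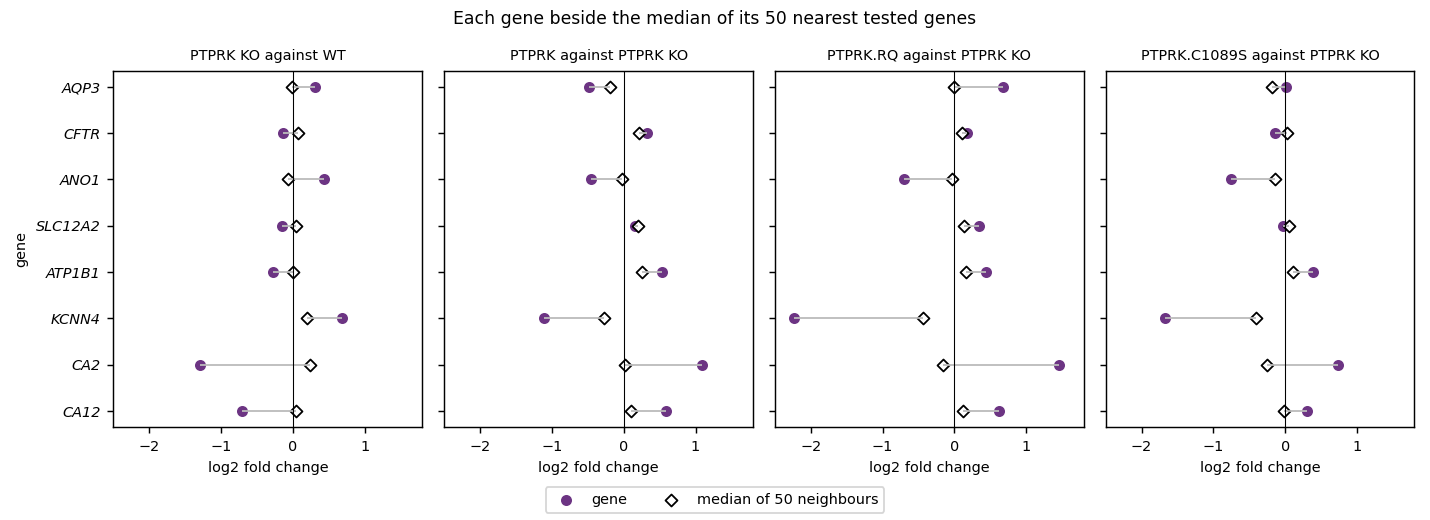
Log2 fold change of 8 transport genes (circles) and the median of the 50 tested genes nearest to each on its chromosome (diamonds), for PTPRK KO against WT and for each re-expressing group against PTPRK KO. The neighbours of KCNN4 reach -0.44 with PTPRK.RQ, where KCNN4 is at -2.24, and those of CA2 are at 0.24 in PTPRK KO, where CA2 is at -1.30.

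A wider list of 83 other transport genes (channels, exchangers, cotransporters, pumps, aquaporins, carbonic anhydrases and guanylin signalling) had 66 genes that passed the filter. In PTPRK KO against WT 2 were called, both lower, 3.03% of the list beside 2.0% of all genes: KCNK5, an acid-sensitive potassium channel, at -0.59 (SE 0.12, adjusted p = 0.0059), and SLC9A3R1, a scaffold that binds CFTR and sodium-proton exchangers, at -0.27 (SE 0.07, adjusted p = 0.0318). Against PTPRK KO, 17 rose and 7 fell with PTPRK (36.4% called, beside 28.6% of all genes), 15 rose and 4 fell with PTPRK.RQ (28.8%, beside 19.1%) and 14 rose and 6 fell with PTPRK.C1089S (30.3%, beside 16.2%). The median of the list was 0.14, 0.15 and 0.05, and that of all genes 0.02, 0.03 and 0.00. The list was also chosen with earlier results of these data known, so these shares are descriptions.

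With PTPRK, the largest rises were those of potassium channels and a bicarbonate transporter. KCNN2, a calcium-activated potassium channel, rose from 0.708 ± 0.421 CPM in PTPRK KO (n = 5) to 3.05 ± 0.866 with PTPRK (n = 6), 2.82 ± 0.843 with PTPRK.RQ (n = 4) and 2.25 ± 0.580 with PTPRK.C1089S (n = 5), by 2.11, 2.0 and 1.67. SLC4A4, the sodium bicarbonate cotransporter that loads bicarbonate at the blood side, rose from 20.8 ± 3.90 CPM to 41.9 ± 4.95, 53.7 ± 8.72 and 37.7 ± 9.70, by 1.01, 1.37 and 0.86, with no overlap with PTPRK KO in any group. KCNJ15, an inward rectifier potassium channel, rose by 1.55, 1.42 and 1.75 from a level of 0.229 ± 0.143 CPM. KCNK5, called lower in the knockout, rose by 0.32, 0.36 and 0.47.

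SLC9A2, a sodium-proton exchanger, was among the wider-list genes that separated the forms. It was at 0.979 ± 0.367 CPM in PTPRK KO and rose to 4.80 ± 1.27 with PTPRK.RQ (2.30, adjusted p = 9e-06) and 3.68 ± 0.561 with PTPRK.C1089S (1.91, adjusted p = 7.17e-05). With PTPRK it was at 1.60 ± 0.734 CPM, a difference of 0.72 (adjusted p = 0.0707) that was not called. It was called higher than in PTPRK in both mutants, by 1.58 (adjusted p = 0.00174) and 1.19 (adjusted p = 0.00848).

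Among the falls, KCNE3, a regulatory subunit of basolateral potassium channels, fell by 0.33, 0.53 and 0.71 with PTPRK, PTPRK.RQ and PTPRK.C1089S. CA8, a carbonic anhydrase-related protein without catalytic activity, fell by 1.0 with PTPRK and by 1.08 with PTPRK.C1089S, and was at -0.17 with PTPRK.RQ (adjusted p = 0.639). GUCA2A and GUCA2B, the guanylins that drive chloride secretion through guanylate cyclase C, fell by 0.75 each with PTPRK. GUCA2A was not called against PTPRK KO with PTPRK.RQ, at 0.42 (adjusted p = 0.237), or with PTPRK.C1089S, at -0.49 (adjusted p = 0.171). It was called higher in PTPRK.RQ than in PTPRK, by 1.16 (adjusted p = 0.00419), and lower in PTPRK.C1089S than in PTPRK.RQ, at -0.91 (adjusted p = 0.0294). SLC4A2, a chloride-bicarbonate exchanger, and SLC12A9, of the cation-chloride cotransporter family, fell by 0.33 and 0.42 with PTPRK and by 0.33 and 0.36 with PTPRK.RQ. BEST2, a chloride channel of goblet cells, fell by 2.36 with PTPRK.C1089S (adjusted p = 0.0104) from 1.0 ± 0.636 CPM. Between the forms, 4 of 66 were called in PTPRK.RQ against PTPRK (6.06%, beside 3.38% of all genes), 7 in PTPRK.C1089S against PTPRK (10.6%, beside 13.2%) and 3 in PTPRK.C1089S against PTPRK.RQ (4.55%, beside 4.93%). Against WT, 24, 14 and 17 were called in PTPRK, PTPRK.RQ and PTPRK.C1089S (36.4%, 21.2% and 25.8%), beside 35.7%, 24.7% and 14.3% of all genes.

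**Figure D5:**
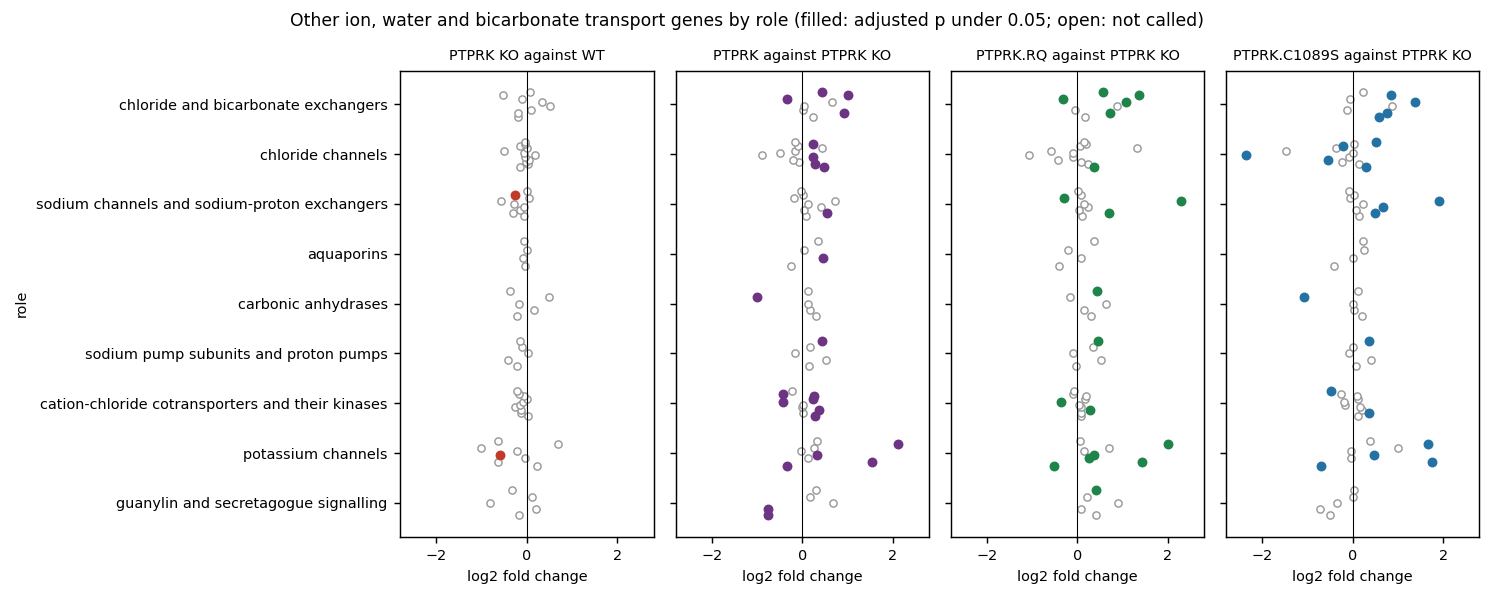
Log2 fold change of the 66 tested genes of the wider transport list, in rows by role, for PTPRK KO against WT and for each re-expressing group against PTPRK KO. Filled points passed the test at an adjusted p of 0.05 over all genes and open points did not. In PTPRK KO against WT 2 points are filled, and against PTPRK KO 24, 19 and 20.

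The tumours carried colon epithelial markers throughout: EPCAM, CDH1, KRT8, KRT18, KRT20, VIL1, CDX2 and LGALS4 summed to 11843 to 17830 CPM. None of these 8 was called in PTPRK KO against WT. Against PTPRK KO, 2, 1 and 3 were called with PTPRK, PTPRK.RQ and PTPRK.C1089S, beside 28.6%, 19.1% and 16.2% of all genes. CDH1 was higher in each, by 0.37, 0.32 and 0.26. LGALS4 was lower with PTPRK (-0.32) and PTPRK.C1089S (-0.40), and KRT20 higher with PTPRK.C1089S (0.49). Of 8 markers of mature absorptive colonocytes, CA1, CA4, AQP8 and MS4A12 had means at or below 0.084 CPM in every group, and the other 4 passed the filter on low counts, CEACAM7 at 24.0 ± 9.19 and FABP1 at 18.9 ± 7.90 CPM in WT (n = 5). The sum of that list was 54.8 to 90.8 CPM in WT and 29.0 to 36.2 in PTPRK KO. It was 42.8 to 78.2 in PTPRK, 40.5 to 60.9 in PTPRK.RQ and 37.7 to 56.0 in PTPRK.C1089S. Of its 4 tested genes 2, FABP1 (-2.38) and CEACAM7 (-1.78), were called lower in PTPRK KO than in WT, beside 2.0% of all genes. Their part in the fall of CA2 and CA12 was not tested. Against PTPRK KO, 3 of the 4 were called with PTPRK (SLC26A2 and CEACAM7 higher, GUCA2A lower), beside 28.6% of all genes. With PTPRK.RQ and PTPRK.C1089S 1 of the 4 was called in each (SLC26A2, higher), beside 19.1% and 16.2% of all genes. SLC26A2, a sulfate transporter, rose by 0.92, 0.73 and 0.76 with PTPRK, PTPRK.RQ and PTPRK.C1089S, beside the rises of CA2, and FABP1 was not called in any of them. Of the BEST4 cell markers, OTOP2 was at 0 and CA7 at or below 0.040 CPM in the mean of every group, and the list summed to 0.995 to 3.68 CPM. SPIB, 1 of its 2 tested genes, was called lower against PTPRK KO in all 3 re-expressing groups, at -1.63, -1.44 and -1.63. Of the 8 goblet cell markers, SPDEF and TFF3 were called lower than in PTPRK KO with PTPRK, and MUC2 and SPDEF lower with PTPRK.C1089S. AGR2, TFF3 and ZG16 were called higher with PTPRK.RQ. Of 15 markers of stroma and blood, 8 passed the filter and none of them was called in PTPRK KO against WT, beside 2.0% of all genes. COL1A2, COL3A1, DCN, PTPRC, HBA1 and HBB were at or below 0.098 CPM in the mean of every group. HT29-derived tumours carried LYZ at 2272 to 2748 CPM in the group means, and without LYZ the list summed to 50.7 to 79.3 CPM. Against PTPRK KO, PECAM1, an endothelial marker, was called higher in all 3 re-expressing groups, by 1.90, 2.02 and 1.43 from 1.19 ± 0.881 CPM (n = 5), and with PTPRK CD68 was also called higher, by 0.30, and ACTA2 lower, by -0.51. The counts are of human genes, so these markers cannot measure the stroma, vessels and blood of the mouse host. Reads of mouse origin can also remain among them. The part of these markers in the changes of the transport genes was not tested.

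Over the 25 tumours, the genes with levels most like each transport gene were taken by Pearson r of log2 CPM among 12692 genes. The tumours share groups, so these values describe the pattern and carry no test. KCNN4 was most like FANCF (r = 0.94) and KBTBD11 (0.90), and ATP1B1 most like ACSM3 (0.93) and PAQR5 (0.92). CFTR was most like CD200 (0.89) and LGR4 (0.88), SLC12A2 like GALNT7 (0.90) and CERS6 (0.82), and CA12 like HSD17B2 (0.86) and LPCAT1 (0.81). CA2 was most like FFAR4 (0.82) and AC092142.1 (0.81), and AQP3 like CELSR1 (0.76) and ALOX5 (0.76). SLC26A3 was most like PTGR1 (0.82) and KLK1 (0.80), values that rest on its 0 to 49 counts per tumour. ANO1 was most like ANO1-AS1 (0.96), which shares its exon reads, and TNFRSF10A (0.80). Within groups, after the group means were taken out, r fell for CA2 and FFAR4 to 0.26 and for AQP3 and CELSR1 to 0.44, and it stayed at 0.86 for both CFTR with CD200 and SLC12A2 with GALNT7.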

How the data were processed

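Polyadenylated RNA was sequenced from the 25 xenograft tumours, grouped by the genotype in the labels. The authors trimmed the reads, mapped them separately to the human (GRCh38) and mouse assemblies with HISAT2, left out poorly mapped reads and, in SeqMonk, counted the reads over the exons of each gene without strand. Reads of mouse origin that also map to a human gene can remain in its count. The labels give HISAT2 2.1.0, and the methods of the study another version. The deposited values are these raw counts for human genes, in 1 table. Of its 38179 rows, 51 repeated an identifier and the row with the larger total was kept, leaving 38128 genes, 9840 of them without a count.

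The counts were analysed in R 4.3.3 with the quasi-likelihood test of edgeR 4.0.16 (TMM scaling, filterByExpr by group, robust estimates) for 10 pairwise comparisons in 1 fit of all 25 tumours, with Benjamini-Hochberg adjustment over 18823 genes. CPM used TMM-scaled library sizes. Alternatives were DESeq2 1.42.0, no filter on low counts, other normalization, the compared groups alone, the 19 tumours of 4 groups, the replicate number as a block, and each tumour left out. The steps were tested on simulated data. The chi-square between the counts of 2 replicates was 12.9 to 112 per gene over 51 pairs, where counting error alone gives about 1, and no pair was counted as 1 sample. The members and the lists of transport genes and markers were chosen with earlier results of these data known. Named genes were the 9 transport genes, PTPRK, markers at or near 0, and wider-list genes called in PTPRK KO against WT. Wider-list genes among the 3 largest rises or falls of each re-expressing group were also named. FABP1, CEACAM7, SLC26A2, PECAM1, CD68, ACTA2, TFF3, ZG16 and CLCA1 were named after their values were seen. So were the values of CDH1, LGALS4, KRT20, SPIB, SPDEF, AGR2 and MUC2. No genome sequence was used here.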

Additional observations from a re-analysis of the deposited data

Results flagged for a closer look

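Of 45 groups of tumours tested for a value far from the others of its group (9 genes in 5 groups), 4 held one, and chance gives about 1 in 20. AQP3 in PTPRK KO replicate 5 was 50.8 CPM where the other 4 tumours were 38.9 to 40.8, and CA12 in the same tumour was 232 CPM where the others were 160 to 172. CA12 in PTPRK.RQ replicate 4 was 284 CPM where the other 3 were 270 to 271. SLC12A2 in WT replicate 2 was 1302 CPM where the others were 1082 to 1141. No reason for these values was tested.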

How the results depend on the processing

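Of the 35 calls of a transport gene, 30 held in every alternative run, and 5 did not: SLC26A3 and SLC12A2 in PTPRK.C1089S against PTPRK.RQ, SLC26A3 and CA12 in PTPRK.C1089S against WT, and SLC12A2 in PTPRK.RQ against PTPRK KO. Of the 55 differences not called, 15 passed in at least 1 alternative. The causes were not tested. In PTPRK KO against WT, DESeq2 called 5 of the 9 genes and 5 of the wider list, the fit of these groups alone 4 of the list and no filter on low counts 1. All genes called there were 626 with DESeq2 and 641 in the fit of these groups alone, against 377. In PTPRK.C1089S against PTPRK, DESeq2 called 4 of the 9 genes, and the fit of these groups alone called 1303 of all genes against 2493. In PTPRK.C1089S against PTPRK.RQ, DESeq2 called 8 of the list and 1407 of all genes, and the fit of these groups alone 2 of the 9 genes, 1 of the list and 396 of all genes, against 928. The fit of these groups alone called 2 of the 9 genes in PTPRK against WT. Values near 0 changed sign: SLC12A2 in PTPRK against WT without the filter (-0.00045), CA12 in PTPRK.RQ against PTPRK with 19 tumours (-0.054) and ANO1 in PTPRK against WT with 19 tumours (0.010). Whether replicate numbers pair the tumours was not tested. Deviations of 46 same-numbered pairs from different groups correlated from -0.30 to 0.53 (median 0.03), 20 of them above 0.1. Among tumours of other groups, 8 of 25 tumours correlated best with one of their own number. With the replicate block, the wider list had 5 calls in PTPRK.C1089S against PTPRK.RQ, CA12 in PTPRK.RQ against PTPRK was -0.032 and ANO1 in PTPRK against WT 0.012, and all other counts stayed within 1.5 times. The block also lost the call of SLC26A3 in PTPRK.C1089S against PTPRK.RQ (adjusted p = 0.0708) and added those of CA12 in PTPRK.C1089S against PTPRK KO (0.0366) and PTPRK (0.0263) and of AQP3 in PTPRK.C1089S against WT (0.0215).

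With each tumour left out in turn, the count of the 9 genes called, SLC26A3 included, ran from 2 to 4 in PTPRK KO against WT (4 without PTPRK.RQ replicate 2), 1 to 2 in PTPRK against WT (2 without PTPRK replicate 5), 2 to 6 in PTPRK.C1089S against PTPRK.RQ (2 without PTPRK.RQ replicate 1, 6 without replicate 2) and 2 to 6 in PTPRK.C1089S against WT (2 without WT replicate 2, 6 without replicate 5). The wider list ran from 1 to 5 in PTPRK KO against WT, 10 to 21 in PTPRK.RQ against PTPRK KO (10 without PTPRK KO replicate 1), 8 to 19 in PTPRK.RQ against WT (8 without WT replicate 2), 4 to 15 in PTPRK.C1089S against PTPRK (15 without PTPRK.C1089S replicate 4) and 0 to 8 in PTPRK.C1089S against PTPRK.RQ (0 without PTPRK.RQ replicate 3, 8 without replicate 2). Some values that were not called changed sign: AQP3 (-0.034 to 0.087) and SLC12A2 (-0.082 to 0.020) in PTPRK.C1089S against PTPRK KO, CA12 in PTPRK.RQ against PTPRK (-0.055 to 0.074), ANO1 in PTPRK.C1089S against PTPRK.RQ (-0.19 to 0.048), ANO1 (-0.087 to 0.018), SLC26A3 (-0.79 to 0.081) and SLC12A2 (-0.051 to 0.067) in PTPRK against WT, and CFTR (-0.018 to 0.10) and SLC26A3 (-0.31 to 1.14) in PTPRK.RQ against WT. All genes called ran from 208 (without WT replicate 1) to 508 in PTPRK KO against WT, 338 (without PTPRK.RQ replicate 4) to 853 in PTPRK.RQ against PTPRK, 1696 (without WT replicate 2) to 2801 in PTPRK.C1089S against WT, 2987 (without PTPRK.RQ replicate 3) to 5476 in PTPRK.RQ against WT, 1005 (without PTPRK.C1089S replicate 2) to 5063 in PTPRK.C1089S against PTPRK and 304 (without PTPRK.RQ replicate 1) to 2422 in PTPRK.C1089S against PTPRK.RQ. Depth limits SLC26A3, with 0 to 49 counts per tumour.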
